A study of Oryctolagus cuniculus with 9 samples.

Results

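The ligamentum flavum of rabbit spine levels under concentrated load was compared with that of levels that had been fused. The comparison takes the 3 ISC libraries against the 3 Fused libraries, which are 6 of the 9 RNA-seq libraries of the study, over all 23407 annotated rows of the deposited table for that pair of levels. ISC stands for intervertebral stress concentration, the name the labels give to the loaded level. All 9 libraries come from male New Zealand white rabbits, listed as 70 weeks old, and were made from bulk RNA of the ligament. The ISC ligaments were taken after ISC load, and the Fused ligaments from levels joined by posterolateral fusion with instruments. The operation, which also removed the supraspinal muscle between the fused segments, was done at 18 weeks of age. The 3 Control libraries, from sham-operated rabbits, are given as values beside the comparison and enter no test in it. The labels state neither how many rabbits were used nor whether an ISC and a Fused ligament came from the same animal, so that p-values reflect only how far the sequenced samples differ, which may be technical in part.

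The ligamentum flavum joins the laminae of neighbouring vertebrae and is the most elastic ligament of the spine: dense elastic fibres, built of elastin on a scaffold of fibrillins and cross-linked by lysyl oxidases, run among collagen fibrils made by ligament fibroblasts. Near its bony insertions it holds fibrocartilage, whose cells make the collagens of cartilage, aggrecan and small leucine-rich proteoglycans. Thickening of this ligament with loss of elastic fibres narrows the spinal canal, and mechanical load is among the causes studied. It borders epidural fat on one side and the marrow-bearing bone of the laminae at its ends, so a dissected piece can carry RNA of adipocytes, bone cells and blood-forming cells.

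Between 1233155 and 1653832 reads were counted in genes in each of the 6 libraries, with 14700 to 15954 genes above 0. Values below are read counts scaled between libraries by the authors with the trimmed mean of M-values (TMM) method, in which 1 read is worth between 1.003 and 1.194. Replicates of a group differed from each other by more than counting noise, so that no library was a copy of another. In their haemoglobin reads, 3 libraries stood apart from the other 3. Haemoglobin transcripts took 0.480%, 5.00% and 0.421% of the scaled reads in ISC libraries 1, 2 and 3, against 1.55%, 5.64% and 6.41% in Fused libraries 1, 2 and 3, and 0.0963% to 0.248% in the Control libraries. This share sums 4 rows, HBB2, HBZ, HBG1 and HBG2, and is almost all HBB2. HBZ, HBG1 and HBG2 held at most 1.19 in any library. HBA1, HBA2 and HBB were not analysed here, so it is not the share of all haemoglobin. The first principal component of the 6 libraries, with 40.5% of the variance, placed ISC replicate 2 at 33.4 with Fused replicates 2 and 3 at 74.0 and 53.3, while ISC replicates 1 and 3 lay at -64.6 and -75.3 and Fused replicate 1 at -20.8. The comparison is therefore also given within the 3 libraries lower in haemoglobin, as ISC replicates 1 and 3 over Fused replicate 1, and within the 3 higher in it, as ISC replicate 2 over Fused replicates 2 and 3. Within the lower ones the haemoglobin share still differed, with Fused replicate 1 above both ISC libraries.

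At the ISC level 31 genes rose and 12 fell relative to the Fused level, among 15404 genes with a value of at least 1 in at least 3 of the 6 libraries. These calls are 0.201% and 0.0779% of the genes tested, by limma with a mean-variance trend on log2(value + 1), two-sided, at a Benjamini-Hochberg adjusted p under 0.05 over all tested genes. The calls counted in each gene list below are to be read beside these shares. Log2 changes on this scale understate the change of low genes. The genes that rose were led by CILP, PRG4, COL11A1, ANGPTL5, CYTL1 and CHAD, most of them genes of cartilage, joint surface or fibrous matrix. The genes that fell were led by KLB, THRSP, CIDEA and CIDEC, genes of fat cells, and by MC5R. In each of the 43 called genes, the 3 ISC values and the 3 Fused values did not overlap, which was also true of 1245 tested genes with higher and 1132 with lower ISC values (8.08% and 7.35% of those tested). Over all tested genes the median log2 change was -0.07, and 44.4% of them were positive.

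**Figure D1:**
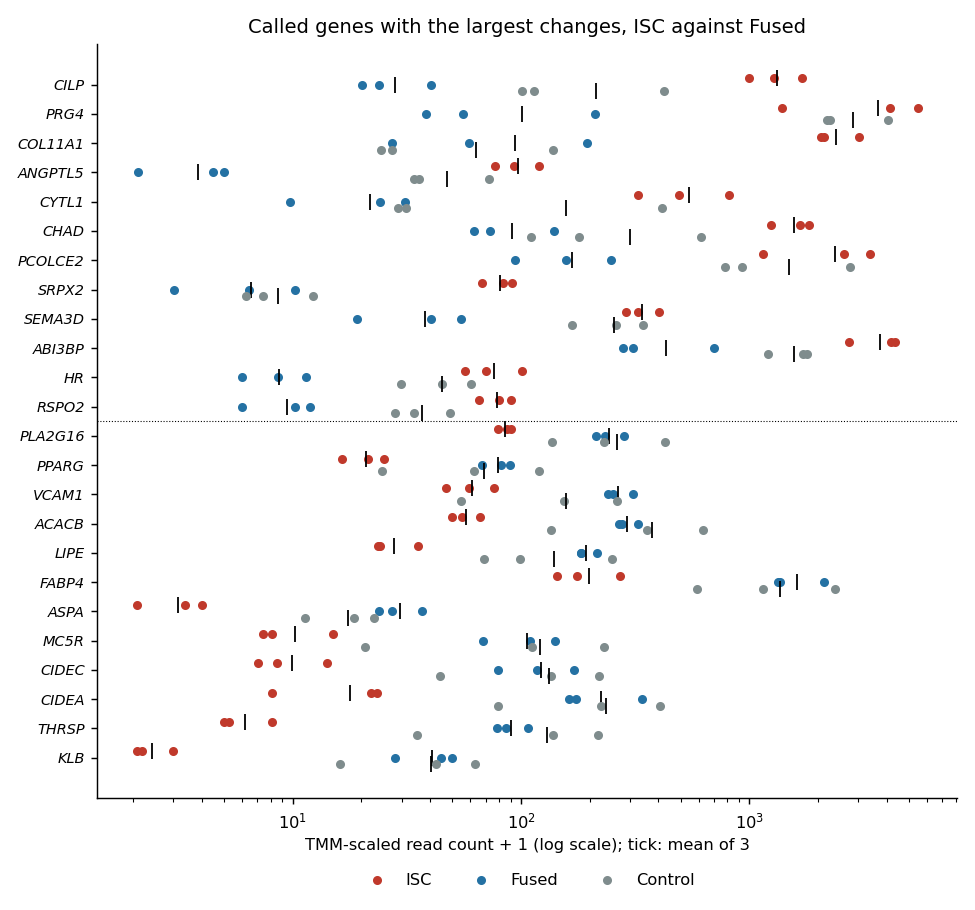
Scaled read counts plus 1 (log axis) of the 12 called genes with the largest rise, above the dotted line, and the 12 that fell, below it, with the 3 ISC libraries in red, the 3 Fused libraries in blue and the 3 Control libraries in grey; black ticks mark means. In each gene the ISC and Fused points do not overlap, from CILP at the top (log2 change 5.59) to KLB at the bottom (log2 change -4.05).

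Because the groups do not overlap in the 43 genes, the views within libraries lower and higher in haemoglobin give the same sign, and they differ in size only. The 31 genes that rose had a median log2 change of 2.32 among the libraries low in haemoglobin and of 3.13 among those high in it. The 12 genes that fell had medians of -3.48 and -2.99. No gene passed limma's adjusted test with ISC replicates 1 and 3 against Fused replicate 1, where 878 genes had an unadjusted p under 0.05; ISC replicate 2 against Fused replicates 2 and 3 was not fitted on its own. The number of calls rests on each library. It was 9, 12 and 15 without ISC replicate 1, 2 or 3, and 24, 3 and 0 without Fused replicate 1, 2 or 3. Scaling the libraries to equal medians, which moves the median of all genes by 0.12, called 61 genes higher and 13 lower, so that 82.4% of the calls were higher in ISC instead of 72.1%.

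**Figure D2:**
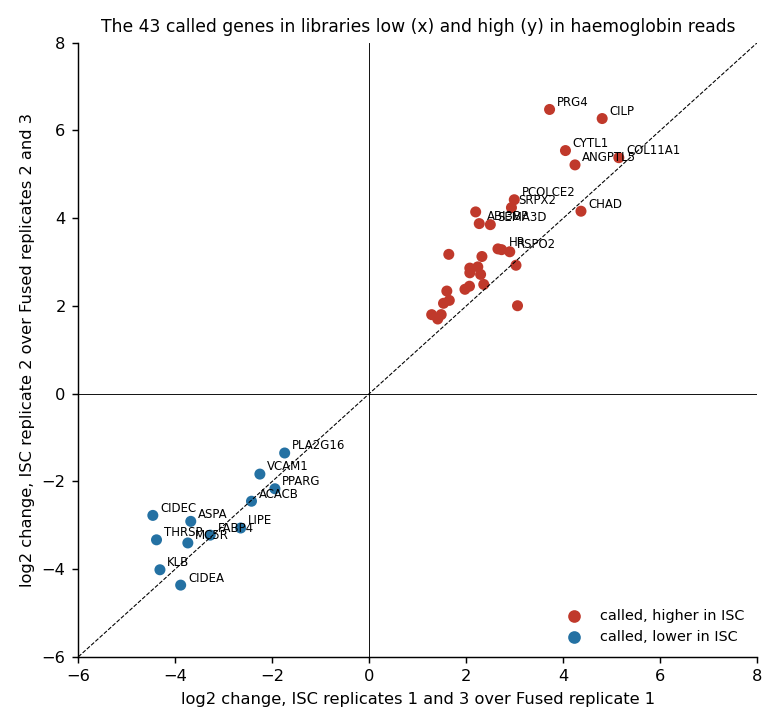
Log2 change of the 43 called genes in ISC replicates 1 and 3 over Fused replicate 1 (x axis) and in ISC replicate 2 over Fused replicates 2 and 3 (y axis), with genes that rose in red and genes that fell in blue; the dashed line marks equal change. The 31 genes that rose have medians of 2.32 and 3.13 on the 2 axes and the 12 that fell -3.48 and -2.99, and the genes that rose lie mostly above the line of equal change.

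Cartilage matrix genes had the highest median log2 change of the 48 gene lists examined, at 2.94 beside -0.07 for all genes. Of 17 members tested, 2 rose and none fell, beside 0.201% and 0.0779% of all tested genes. A positive change was seen in 14 members and a negative one in 3. Without overlap, 10 members were higher and 1 lower in ISC, beside 8.08% and 7.35% of all tested genes. COMP, CNMD, SNORC and CILP2 were not analysed here. CILP (cartilage intermediate layer protein, chr17:7080560-7095372 in the oryCun2 build), a secreted protein of cartilage and intervertebral disc, had scaled counts of 1283, 1694 and 992 in ISC libraries, against 39.5, 19.1 and 23.0 in Fused libraries. Every ISC library lay far above every Fused library (log2 change 5.59 ± 0.32 (SE), adjusted p = 0.00275, limma). Control libraries had 422, 113 and 100.0, all between the groups. COL11A1 (chr13:61054050-61262804), which encodes a chain of the type XI collagen that forms the core of cartilage fibrils, had 2112, 3032 and 2066 in ISC libraries, against 58.1, 194 and 26.2 in Fused libraries (log2 change 5.12 ± 0.63 (SE), adjusted p = 0.0312, limma). The Control libraries, at 138, 26.4 and 23.5, overlapped the Fused ones here. Fused replicate 2 was the highest Fused library for COL11A1, as it was for the cartilage collagens that follow.

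COL2A1, the main collagen of cartilage, had 3555, 7738 and 5171 in ISC libraries, against 74.3, 805 and 15.3 in Fused libraries. Control libraries held at most 18.9. The groups did not overlap, but Fused replicate 2 lay far from the other Fused libraries and the log2 change of 5.71 ± 1.22 (SE) did not pass (limma adjusted p = 0.123). COL9A1 of type IX collagen, which coats the same fibrils, had 87.9, 78.8 and 80.3 in ISC libraries, against 17.4, 57.3 and 3.28 in Fused libraries (adjusted p = 0.374, limma). COL9A2, which encodes another chain of type IX collagen, had 172, 150.4 and 179.6 in ISC libraries, against 15.1, 73.4 and 7.65 in Fused libraries (limma adjusted p = 0.165). In both genes the ISC libraries lay close together and the Fused libraries were spread widely below them. ACAN, the core protein of aggrecan, averaged 2568 ± 1114 in ISC libraries and 132 ± 85.4 in Fused libraries (SD, n = 3 each), and its adjusted p of 0.0509 by limma lay just outside the threshold. HAPLN1, the link protein that fixes aggrecan to hyaluronan, averaged 372 ± 162 in ISC libraries and 33.8 ± 27.9 in Fused libraries (limma adjusted p = 0.0889). COL10A1, the collagen of hypertrophic cartilage, did not separate the groups, at 79.3, 20.3 and 1095 in ISC libraries, against 5.81, 109 and 4.37 in Fused libraries: the high values came from ISC replicate 3 and Fused replicate 2.

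Per kilobase of annotated exons, mean scaled counts at the ISC level were 1104 for COL2A1, 351 for ACAN, 323 for COL11A1 and 309 for CILP. The same genes at the Fused level stood at 60.0, 18.01, 12.47 and 6.35 per kilobase. CHAD and CYTL1, which are outside the cartilage matrix list, stood at 1489 and 629 per kilobase at the ISC level. Summed over the cartilage matrix list, scaled counts were 12541, 17655 and 12749 in ISC libraries, 766, 2219 and 466 in Fused libraries, and 2248, 1077 and 788 in Control libraries. CILP and CHAD kept their call in 5 of the 6 fits that leave out 1 library, while COL11A1 kept it in 1. SOX9 (chr19:55820440-55825108), the transcription factor that drives cartilage genes, rose too, with 139, 146 and 80.3 in ISC libraries, against 24.4, 26.2 and 16.4 in Fused libraries (log2 change 2.37 ± 0.32 (SE), adjusted p = 0.0369, limma). Control values of SOX9, 131, 54.3 and 44.4, overlapped the ISC range. Of the 7 chondrogenic transcription factor genes tested it was the only one called; TRPS1, which acts in growth cartilage, had 23.6, 28.6 and 28.1 in ISC libraries, against 5.81, 5.03 and 4.37 in Fused libraries (limma adjusted p = 0.0678), RUNX3, which acts with RUNX2 in cartilage maturation, had 1.07, 1.19 and 1.003 in ISC libraries, against 1.16, 7.04 and 4.37 in Fused libraries (limma adjusted p = 0.600), and SOX6, a partner of SOX9, had overlapping values of 65.4, 128 and 56.2 in ISC libraries, against 32.5, 51.3 and 76.5 in Fused libraries.

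The small leucine-rich proteoglycans and their relatives, proteins that bind collagen fibrils and set their spacing, all had positive changes, 13 of 13 tested. Their median log2 change was 2.15, and 1 of them rose, beside 0.201% of all tested genes. CHAD (chr19:37254563-37258436), chondroadherin, which binds both collagen and chondrocytes, had 1815, 1658 and 1245 in ISC libraries, against 72.0, 138 and 61.2 in Fused libraries. The ISC values lay within a narrow range and the Fused values below 140 (log2 change 4.18 ± 0.33 (SE), adjusted p = 0.0120, limma). Control libraries had 611, 178 and 109.6. Fibromodulin, FMOD, had 2260.3, 7154 and 7062 in ISC libraries, against 614, 439 and 310.5 in Fused libraries, without overlap and with an adjusted p of 0.0509 (limma). Biglycan, BGN, averaged 7789 ± 2638 in ISC libraries and 1718 ± 355 in Fused libraries (SD, n = 3 each; limma adjusted p = 0.0887). OMD, osteomodulin, averaged 850.1 ± 182 in ISC libraries and 399.9 ± 70.2 in Fused libraries (limma adjusted p = 0.146). OGN, osteoglycin, was the member with the smallest difference, at 16822, 6102 and 9962 in ISC libraries, against 12864, 6203 and 10153 in Fused libraries. Beside 8.08% of all tested genes, 8 of the 13 were higher in ISC without overlap. Their summed scaled counts were 44223, 49212 and 47737 in ISC libraries, 22111, 13291 and 16052 in Fused libraries, and 33092, 37943 and 26467 in Control libraries. PRELP, which anchors basement membranes to collagen, averaged 12499.5 ± 1874 in ISC libraries and 2729 ± 689.6 in Fused libraries (limma adjusted p = 0.110).

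PRG4 (chr16:84071632-84086913), lubricin, the boundary lubricant of joint and tendon surfaces, had 1387, 4109 and 5494 in ISC libraries, against 209, 37.2 and 54.7 in Fused libraries. No Fused library came near the ISC range (log2 change 5.37 ± 0.72 (SE), adjusted p = 0.0369, limma), and ISC replicate 1 was the lowest ISC library. Control libraries, at 4058, 2180.1 and 2250.3, lay within the ISC range and above all Fused libraries. Among 14 tested genes of the synovial lining list, PRG4 rose and VCAM1 fell, and the median log2 change was 0.70. HTRA4, a secreted serine protease of that list, had 108, 103 and 1763 in ISC libraries, against 13.9, 2.01 and 3.28 in Fused libraries, with ISC replicate 3 far above the rest (limma adjusted p = 0.103). CYTL1 (chrUn0176:376324-380361), a small secreted protein found in cartilage, had 491, 810.4 and 324 in ISC libraries, against 23.2, 30.2 and 8.75 in Fused libraries (log2 change 4.70 ± 0.49 (SE), adjusted p = 0.0278, limma). Its Control libraries split, at 412, 27.9 and 30.4: replicate 1 lay with the ISC libraries and the other two with the Fused ones.

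Genes of collagen fibrils and their assembly were positive in most cases, but few passed the test. Of 14 fibrillar collagen and procollagen processing genes tested, 1 rose and 13 were positive (median log2 change 1.33). PCOLCE2 (chr14:36228224-36314928), which speeds removal of the procollagen C-terminal propeptide, had 3388, 2597 and 1147 in ISC libraries, against 247, 156 and 92.9 in Fused libraries (log2 change 3.81 ± 0.48 (SE), adjusted p = 0.0312, limma). COL3A1, the fibrillar collagen of compliant tissue, had 15876, 54987 and 22844 in ISC libraries, against 4886, 2092 and 1655 in Fused libraries, with no overlap but a large spread among ISC libraries (limma adjusted p = 0.121). COL5A1, of the type V collagen that limits fibril width, averaged 1758 ± 741 in ISC libraries and 318 ± 100.1 in Fused libraries (SD, n = 3 each; limma adjusted p = 0.0642). COL5A2, its partner chain, averaged 3853 ± 1888 in ISC libraries and 688 ± 262 in Fused libraries (limma adjusted p = 0.0851). COL1A1, the chief collagen of ligament and bone, overlapped between the groups, at 3343, 20579 and 13586 in ISC libraries, against 1963, 18111 and 1644 in Fused libraries: Fused replicate 2 was close to ISC replicate 2 (limma adjusted p = 0.743).

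COL16A1 (chrUn0006:6438393-6484956), a collagen attached to fibril and microfibril surfaces, had 1201, 1429.8 and 1148 in ISC libraries, against 298, 382 and 197 in Fused libraries (log2 change 2.15 ± 0.28 (SE), adjusted p = 0.0346, limma). COL6A1, COL6A2 and COL6A3, the chains of beaded-filament collagen VI, were without overlap too but did not pass. COL6A2 averaged 3064 ± 817 in ISC libraries and 784 ± 313 in Fused libraries (limma adjusted p = 0.0837), and COL6A1 averaged 2079.9 ± 1006 in ISC libraries and 418 ± 182 in Fused libraries (limma adjusted p = 0.0887). In the list of 10 tested fibril-associated and related collagens, 1 rose, 7 were positive and the median log2 change was 2.08. It stood at 1.22 among libraries low in haemoglobin and 2.55 among those high in it.

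Collagen folding and hydroxylation genes lay on one side of 0 throughout. All 17 tested members were positive. Of them, 14 were higher in ISC without overlap, beside 8.08% of all tested genes. The median log2 change was 1.07, although only PLOD2 passed. PLOD2 (chr14:39741249-39840307), the lysyl hydroxylase that prepares collagen telopeptides for stable cross-links, had 441, 1393 and 701 in ISC libraries, against 121, 85.5 and 71.1 in Fused libraries (log2 change 3.05 ± 0.42 (SE), adjusted p = 0.0395, limma). Control libraries, at 260.2, 228 and 166, lay between the groups. FKBP10, a collagen chaperone that works with PLOD2, had 538, 488 and 506 in ISC libraries, against 189, 230.3 and 148 in Fused libraries, an even difference at the edge of the threshold (limma adjusted p = 0.0509). P4HA2, a prolyl hydroxylase subunit, had 343, 514 and 257 in ISC libraries, against 119.6, 75.4 and 63.4 in Fused libraries (limma adjusted p = 0.0607). The endoplasmic reticulum receptor KDELR3 (chr4:84675823-84683961), which returns chaperones from the Golgi, had 162, 203 and 201 in ISC libraries, against 63.9, 51.3 and 64.5 in Fused libraries and rose (log2 change 1.64 ± 0.20 (SE), adjusted p = 0.0312, limma). Of 18 endoplasmic reticulum stress genes tested none passed, 16 were positive and the median was 0.53; the chaperone HSPA5 averaged 804 ± 229 in ISC libraries and 404 ± 51.2 in Fused libraries, the disulphide isomerase PDIA6 345 ± 82.9 in ISC libraries and 200.1 ± 6.48 in Fused libraries, and SEL1L, an adaptor for the degradation of misfolded proteins, 165 ± 16.3 in ISC libraries and 108 ± 24.7 in Fused libraries. Their adjusted p-values by limma were 0.246, 0.277 and 0.368.

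Elastic fibre genes were higher at the ISC level in 19 of 20 tested members, with 1 call and a median log2 change of 1.22. LOXL3 (chr2:111990273-112008448), a lysyl oxidase relative that cross-links elastin and collagen, had 366, 419 and 633 in ISC libraries, against 92.9, 102 and 53.6 in Fused libraries (log2 change 2.51 ± 0.31 (SE), adjusted p = 0.0312, limma). Control libraries lay between, at 157, 185 and 144. Elastin itself, ELN, had 1757, 3754 and 1260.0 in ISC libraries, against 411, 265 and 146 in Fused libraries. All ISC libraries lay above all Fused ones, with an adjusted p of 0.0678 (limma). LOX had 6207, 4391 and 2330.4 in ISC libraries, against 897, 377 and 112 in Fused libraries (limma adjusted p = 0.105), and in this gene ISC replicate 3 and Fused replicate 3 were the lowest of their groups. LTBP2, a microfibril protein, averaged 5874 ± 1202 in ISC libraries and 1043 ± 430.5 in Fused libraries (SD, n = 3 each; limma adjusted p = 0.0678), and FBN1, the fibrillin scaffold, 1228 ± 239 in ISC libraries and 504 ± 236 in Fused libraries (limma adjusted p = 0.201). EFEMP1, fibulin-3, was the exception in sign, at 1278, 465 and 147 in ISC libraries, against 856, 864 and 1428 in Fused libraries, with overlapping groups. Control levels of ELN, 1394, 2046 and 1001, and LOX, 4260.2, 4968 and 3652, lay within or close to the ISC range.

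Among matricellular and adhesive glycoproteins, 2 of 20 tested members rose, beside 0.201% of all tested genes, and 19 were positive (median log2 change 1.02). THBS3 (chr13:37490535-37499836), a thrombospondin of skeletal tissues, had 127, 173 and 251 in ISC libraries, against 41.8, 31.2 and 30.6 in Fused libraries (log2 change 2.33 ± 0.29 (SE), adjusted p = 0.0312, limma). SMOC2 (chrUn0232:125757-261148), a calcium-binding relative of SPARC, had 572, 983 and 746 in ISC libraries, against 209, 123 and 95.1 in Fused libraries (log2 change 2.47 ± 0.33 (SE), adjusted p = 0.0392, limma). Fibronectin, FN1, which links cells to collagen, had 17002, 30929 and 24654 in ISC libraries, against 2917, 1504 and 1099.8 in Fused libraries, and the matricellular protein periostin, POSTN, 5687, 15629 and 17307 in ISC libraries, against 1139, 829.8 and 362 in Fused libraries. Neither overlapped between the groups, and both had an adjusted p of 0.0509 (limma). THBS4, a thrombospondin of tendon, had 386, 1580.2 and 6124 in ISC libraries, against 79.0, 13.1 and 17.5 in Fused libraries; its log2 change of 5.82 was larger than that of any called gene, but ISC replicate 3 lay far above ISC replicate 1 (limma adjusted p = 0.0778). CTGF, a target of TGF-beta and YAP signalling, overlapped, at 4998, 1127 and 9968 in ISC libraries, against 2925, 1740.0 and 1556 in Fused libraries. ABI3BP (chr14:119577151-119862973), an adhesive matrix protein outside the lists, had 2717, 4336 and 4163 in ISC libraries, against 698, 309.8 and 279.9 in Fused libraries and rose (log2 change 3.22 ± 0.40 (SE), adjusted p = 0.0312, limma).

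**Figure D3:**
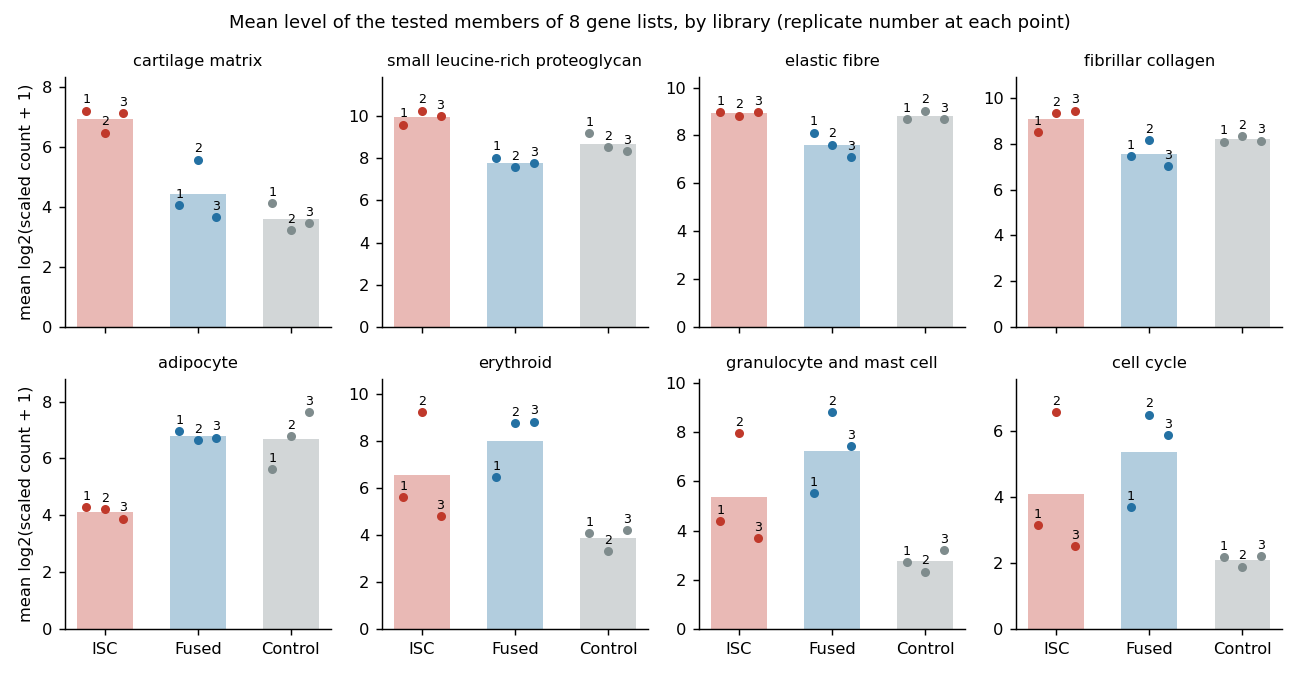
Mean log2(scaled count + 1) over the tested members of 8 gene lists in each library, with bars at the group mean and the replicate number at each point; ISC is red, Fused blue and Control grey. Cartilage matrix lies at 7.22, 6.48 and 7.13 in ISC libraries and at 4.07, 5.58 and 3.68 in Fused libraries, the adipocyte list in the opposite order, and the erythroid, granulocyte and cell cycle lists are high in ISC replicate 2 and Fused replicates 2 and 3.

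Tendon and ligament genes are given beside the labelled tissue, but no criterion was set and the values do not settle its identity. MKX, a tendon transcription factor, was read in all libraries, with 13.9, 19.1 and 30.1 in ISC libraries, against 32.5, 15.1 and 15.3 in Fused libraries. TNMD, tenomodulin, a defining gene of tendon, was listed at 0 in 5 of the 6 libraries and had 12.04 in ISC replicate 3. SCX, the defining transcription factor, was not analysed here. None of the 12 tested members passed, and 10 were positive (median log2 change 1.01). KERA, keratocan, a proteoglycan of that list, had 4.29, 56.1 and 19.1 in ISC libraries, against 1.16, 0 and 1.09 in Fused libraries (limma adjusted p = 0.200). Fibroblast genes differed less: 1 of 17 rose, 13 were positive and the median was 0.37. The call was ANGPTL5 (chr1:114897582-114912991), a secreted angiopoietin-like protein, with 76.1, 119 and 92.3 in ISC libraries, against 3.48, 4.02 and 1.09 in Fused libraries (log2 change 4.72 ± 0.44 (SE), adjusted p = 0.0185, limma). Each Fused library held fewer than 5 scaled reads of it. FAP, a fibroblast surface protease, averaged 446 ± 93.4 in ISC libraries and 184 ± 30.6 in Fused libraries (SD, n = 3 each; limma adjusted p = 0.0857), and DPT, dermatopontin, 839 ± 77.5 in ISC libraries and 351 ± 161 in Fused libraries (limma adjusted p = 0.198).

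Protease inhibitors had a higher median change than the proteases. Of 11 inhibitor genes tested, 1 rose and 10 were positive (median log2 change 1.18). SERPINE2 (chr7:165490573-165552707), protease nexin 1, had 854, 1180.4 and 640.0 in ISC libraries, against 149.8, 245 and 130.1 in Fused libraries (log2 change 2.35 ± 0.32 (SE), adjusted p = 0.0392, limma). TIMP1, an inhibitor of matrix metalloproteinases, averaged 189 ± 37.5 in ISC libraries and 75.2 ± 17.6 in Fused libraries (SD, n = 3 each; limma adjusted p = 0.0864), and TIMP3 773 ± 238 in ISC libraries and 325 ± 112 in Fused libraries (limma adjusted p = 0.225). Of 15 matrix metalloproteinase genes none passed and 5 were positive (median -0.40). MMP2, the gelatinase of fibroblasts, had 634, 914 and 2083 in ISC libraries, against 609.7, 407 and 259 in Fused libraries, without overlap (limma adjusted p = 0.361). MMP9, the gelatinase of osteoclasts and leukocytes, had 4.29, 74.0 and 31.1 in ISC libraries, against 19.7, 611 and 44.8 in Fused libraries, with Fused replicate 2 far above the rest. MMP28 had 11.8, 3.58 and 5.02 in ISC libraries, against 29.0, 14.1 and 16.4 in Fused libraries (limma adjusted p = 0.374), and MMP24, a membrane-bound member, had 2.14, 2.39 and 2.01 in ISC libraries, against 5.81, 6.03 and 7.65 in Fused libraries (limma adjusted p = 0.374). Of 16 ADAMTS family genes none passed, and the median was 0.30. ADAMTS6, a protease of that family, averaged 47.8 ± 21.0 in ISC libraries and 16.5 ± 8.51 in Fused libraries. ADAMTSL3 and ADAMTSL4 are relatives without protease activity. ADAMTSL3 averaged 327 ± 80.7 in ISC libraries and 195 ± 52.3 in Fused libraries, and ADAMTSL4, which binds fibrillin microfibrils, averaged 140.2 ± 22.8 in ISC libraries and 40.4 ± 23.2 in Fused libraries. The adjusted p-values of the 3 by limma were 0.297, 0.403 and 0.191.

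Ligands and receptors of growth factor pathways gave few calls. RSPO2 (chr3:123298532-123481247), a secreted enhancer of Wnt signalling, had 89.0, 78.8 and 64.2 in ISC libraries, against 9.29, 5.03 and 10.9 in Fused libraries (log2 change 3.10 ± 0.35 (SE), adjusted p = 0.0294, limma), with Control libraries between the groups at 33.0, 47.9 and 27.0. It was the only call among 24 Wnt genes, beside 0.201% of all tested genes that rose, and their median log2 change was -0.15. DKK3, a secreted relative of the Dickkopf Wnt antagonists, averaged 863 ± 304 in ISC libraries and 164 ± 86.3 in Fused libraries (SD, n = 3 each; limma adjusted p = 0.0864). WNT11, a ligand of the pathway, had 11.8, 11.9 and 19.1 in ISC libraries, against 8.13, 2.01 and 2.19 in Fused libraries (limma adjusted p = 0.321). RSPO3, from the same family as RSPO2, was lower in every ISC library, at 45.0, 8.35 and 76.2 in ISC libraries, against 139, 85.5 and 157 in Fused libraries (limma adjusted p = 0.382). None of 21 TGF-beta ligands, receptors and SMADs passed. TGFB1 had overlapping values of 25.7, 47.7 and 44.1 in ISC libraries, against 18.6, 47.3 and 27.3 in Fused libraries, SMAD3, a transducer of the pathway, averaged 367 ± 75.5 in ISC libraries and 152 ± 30.3 in Fused libraries (limma adjusted p = 0.0848), and the list had a median log2 change of 0.38. INHBA, the subunit of activin A, had 139, 121 and 202 in ISC libraries, against 72.0, 37.2 and 36.1 in Fused libraries (limma adjusted p = 0.0952), and SMAD7, an inhibitor of the receptors, had 40.7, 39.4 and 55.2 in ISC libraries, against 33.7, 21.1 and 18.6 in Fused libraries (limma adjusted p = 0.376).

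The 15 genes known to respond to TGF-beta had a median of 0.94 with 14 positive and no call. NOX4, an oxidase of that list, averaged 273 ± 73.5 in ISC libraries and 89.4 ± 41.2 in Fused libraries (SD, n = 3 each; limma adjusted p = 0.142). Among 23 BMP and GDF genes none passed (median -0.40). Without overlap, 3 members were higher and 3 lower in ISC, beside 8.08% and 7.35% of all tested genes. GDF10 averaged 155 ± 53.8 in ISC libraries and 41.8 ± 10.7 in Fused libraries (limma adjusted p = 0.0838), and CHRDL1, a BMP antagonist, averaged 23.7 ± 3.30 in ISC libraries and 72.5 ± 16.7 in Fused libraries (limma adjusted p = 0.0712). BMP3, a ligand that opposes bone formation, had 12.9, 4.77 and 2.01 in ISC libraries, against 19.7, 54.3 and 97.3 in Fused libraries (limma adjusted p = 0.191). The list of YAP targets and mechanical response genes held no call among 16, of which 12 were positive and 4 negative. Its median log2 change was 0.29, with 0.11 among libraries low in haemoglobin and -0.23 among those high in it. TRPV4, a cation channel opened by stretch and swelling, had 92.2, 116 and 26.1 in ISC libraries, against 4.65, 5.03 and 5.47 in Fused libraries without overlap (limma adjusted p = 0.0648). ITGA11, a collagen-binding integrin of fibroblasts, averaged 442 ± 189 in ISC libraries and 129.9 ± 34.5 in Fused libraries (limma adjusted p = 0.0887). WWTR1, the co-activator TAZ, averaged 741 ± 76.1 in ISC libraries and 397 ± 102 in Fused libraries (limma adjusted p = 0.227). The hedgehog co-receptor CDON averaged 347 ± 69.7 in ISC libraries and 136 ± 53.3 in Fused libraries (limma adjusted p = 0.132), in a list of 11 with a median of 0.95 and no call. Its partners BOC and GAS1, which also bind the ligand, averaged 691 ± 210.2 in ISC libraries and 293 ± 87.2 in Fused libraries for BOC and 781 ± 334 in ISC libraries and 249 ± 74.5 in Fused libraries for GAS1 (limma adjusted p = 0.214 and 0.201).

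Further secreted, membrane and nuclear proteins rose, named here because they passed the test. SRPX2 (chrX:88706898-88732246), a secreted sushi-repeat protein, had 66.5, 82.4 and 90.3 in ISC libraries, against 9.29, 2.01 and 5.47 in Fused libraries (log2 change 3.77 ± 0.48 (SE), adjusted p = 0.0312, limma), and its Control libraries, at 11.3, 6.39 and 5.22, overlapped the Fused ones. SEMA3D (chr10:42911188-43193330), a secreted guidance cue, had 325, 399.8 and 288 in ISC libraries, against 53.4, 18.1 and 39.4 in Fused libraries (log2 change 3.27 ± 0.38 (SE), adjusted p = 0.0294, limma). HR (chrUn0100:537877-555569), a nuclear corepressor, had 55.8, 69.2 and 100.3 in ISC libraries, against 10.5, 5.03 and 7.65 in Fused libraries (log2 change 3.13 ± 0.38 (SE), adjusted p = 0.0312, limma). None of these 3 genes overlapped between the groups, and each Fused library was below 55. SUSD5 had 284, 335 and 193 in ISC libraries, against 27.9, 34.2 and 54.7 in Fused libraries, and KCNK5, a background potassium channel, 118, 84.7 and 109 in ISC libraries, against 12.8, 21.1 and 19.7 in Fused libraries. Control values overlapped the Fused range in both, at 35.8, 66.3 and 54.8 for SUSD5 and 34.9, 14.4 and 12.2 for KCNK5. SLC1A4, a transporter of neutral amino acids, averaged 248 ± 49.8 in ISC libraries and 32.9 ± 14.5 in Fused libraries, and ADGRG2, an adhesion receptor coupled to G proteins, 293 ± 37.1 in ISC libraries and 39.7 ± 17.9 in Fused libraries (SD, n = 3 each).

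The last of the genes that rose act inside the cell or at its membrane. STEAP2, a metalloreductase, averaged 178 ± 13.5 in ISC libraries and 28.2 ± 10.7 in Fused libraries (SD, n = 3 each). SDK2, a cell adhesion protein, averaged 194 ± 70.8 in ISC libraries and 34.05 ± 2.71 in Fused libraries, and STK38L, a protein kinase, 256 ± 15.3 in ISC libraries and 64.3 ± 18.9 in Fused libraries. PAM, which amidates secreted peptides, averaged 1313 ± 109 in ISC libraries and 374 ± 52.2 in Fused libraries. CAPG, an actin-capping protein, averaged 221 ± 19.6 in ISC libraries and 73.3 ± 11.5 in Fused libraries, and GBE1, the glycogen branching enzyme, 291 ± 51.8 in ISC libraries and 101 ± 6.81 in Fused libraries. The row LOC103347191, to which the tables used pair no symbol, averaged 829.9 ± 123 in ISC libraries and 195 ± 78.9 in Fused libraries. Their log2 changes ran from 1.51 for GBE1 to 2.96 for SLC1A4 and their adjusted p-values from 0.0278 for ADGRG2 to 0.0474 for LOC103347191 (limma).

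**Figure D4:**
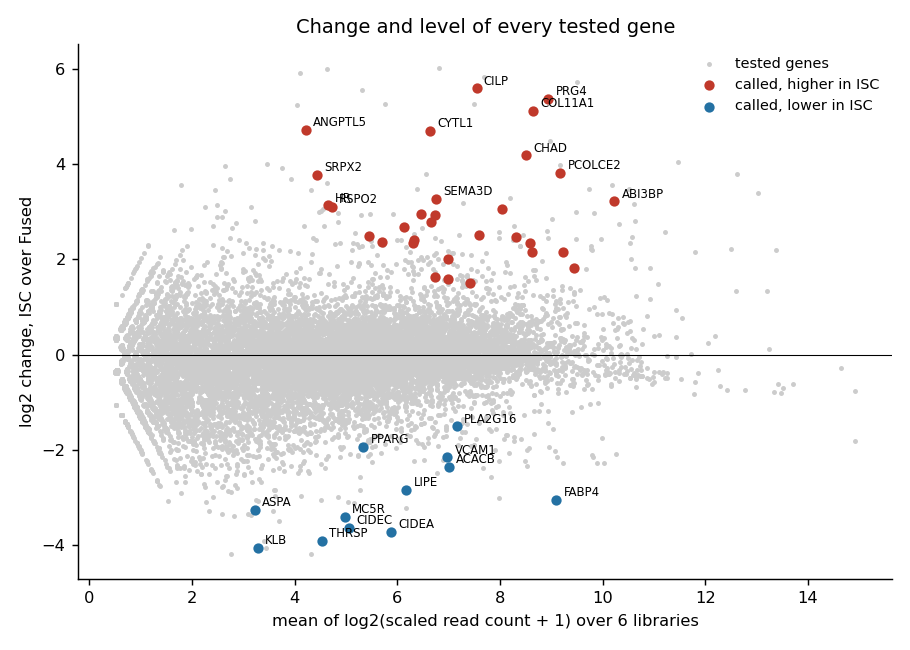
Log2 change, ISC over Fused, against the mean log2(scaled count + 1) over the 6 libraries for each of the 15404 tested genes, with called genes in red (31 higher) and blue (12 lower). The called genes lie over a wide range of levels, and many uncalled genes have changes as large as theirs.

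Adipocyte genes were lower at the ISC level without exception among the 18 tested, with a median log2 change of -2.69. Of them 8 fell, beside 0.0779% of all tested genes. Of the 18, 16 were lower in ISC without overlap, beside 7.35% of all tested genes. The 8 make up most of the 12 genes that fell. KLB (chr2:28738619-28783510), the co-receptor of FGF21, had 1.07, 1.19 and 2.01 in ISC libraries, against 48.8, 27.2 and 43.7 in Fused libraries, so that the ISC libraries held about 1 or 2 reads each (log2 change -4.05 ± 0.44 (SE), adjusted p = 0.0285, limma). THRSP (chr1:138690614-138694425), a nuclear regulator of lipid synthesis, had 4.29, 7.16 and 4.01 in ISC libraries, against 107, 77.4 and 85.3 in Fused libraries (log2 change -3.91 ± 0.34 (SE), adjusted p = 0.0124, limma). CIDEA (chr9:49848683-49870803) and CIDEC (chrUn0104:329706-337000) coat and enlarge lipid droplets. CIDEA had 22.5, 7.16 and 21.1 in ISC libraries, against 337, 173 and 162 in Fused libraries (log2 change -3.71 ± 0.47 (SE), adjusted p = 0.0312, limma). CIDEC had 7.51, 13.1 and 6.02 in ISC libraries, against 169.5, 78.5 and 117 in Fused libraries (log2 change -3.63 ± 0.40 (SE), adjusted p = 0.0285, limma).

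FABP4 (chr3:97155361-97159722), the fatty acid carrier of adipocytes, was the most abundant of the 8 per kilobase, with 271, 143 and 176 in ISC libraries, against 2129.8, 1337 and 1361 in Fused libraries (log2 change -3.04 ± 0.31 (SE), adjusted p = 0.0278, limma). LIPE (chrUn0091:278615-296086), hormone-sensitive lipase, had 34.3, 22.7 and 23.1 in ISC libraries, against 182, 182 and 213 in Fused libraries (log2 change -2.83 ± 0.23 (SE), adjusted p = 0.0120, limma). ACACB (chrUn0194:55198-172680), the acetyl-CoA carboxylase of mitochondria, had 65.4, 48.9 and 54.2 in ISC libraries, against 325, 269 and 277 in Fused libraries (log2 change -2.35 ± 0.20 (SE), adjusted p = 0.0120, limma). In all 3 genes every Fused library lay well above the ISC ones. PPARG (chr9:11495126-11632867), the transcription factor that drives adipocyte formation, had 20.4, 15.5 and 24.1 in ISC libraries, against 88.3, 66.4 and 80.9 in Fused libraries (log2 change -1.93 ± 0.27 (SE), adjusted p = 0.0441, limma). ADIPOQ, the hormone adiponectin, had 643, 597 and 809.6 in ISC libraries, against 2303, 938 and 1162 in Fused libraries, without overlap (limma adjusted p = 0.375). LEP, leptin, averaged 1.78 ± 0.514 in ISC libraries and 29.8 ± 15.6 in Fused libraries (SD, n = 3 each; limma adjusted p = 0.0509), and LPL, lipoprotein lipase, 102 ± 52.6 in ISC libraries and 555 ± 105 in Fused libraries (limma adjusted p = 0.0539). PLIN1, a defining adipocyte gene, was not analysed here.

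Summed scaled counts of the adipocyte list were 1258, 1153 and 1283 in ISC libraries, 7003, 4094 and 4524 in Fused libraries, and 2259.7, 4881 and 8764 in Control libraries, with no overlap between ISC and Fused. One Control library lay between the groups, another within the Fused range and the last above it, and for KLB the Control libraries had 15.1, 41.5 and 61.8. In bulk RNA, fewer cells of a type and less RNA per cell cannot be told apart. Adipocyte medians were -2.85 among libraries low in haemoglobin and -2.62 among those high in it. Adipocytes within the ligament and in fat next to it cannot be told apart either.

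The other genes that fell were few. MC5R (chr9:48334482-48339143), a melanocortin receptor, had 6.43, 7.16 and 14.0 in ISC libraries, against 141, 67.4 and 108 in Fused libraries (log2 change -3.39 ± 0.40 (SE), adjusted p = 0.0312, limma). ASPA (chr19:14918145-14936916), which splits N-acetylaspartate, had 1.07, 2.39 and 3.01 in ISC libraries, against 36.0, 26.2 and 23.0 in Fused libraries (log2 change -3.25 ± 0.46 (SE), adjusted p = 0.0474, limma). PLA2G16 (chrUn0019:311747-343279), a phospholipase of adipose tissue, had 89.0, 85.9 and 78.2 in ISC libraries, against 282, 211 and 232 in Fused libraries (log2 change -1.50 ± 0.19 (SE), adjusted p = 0.0312, limma). For ASPA and PLA2G16, Control replicate 3 was the highest Control library, as it was for KLB. VCAM1 (chr13:63440580-63462573), the adhesion molecule that holds leukocytes and blood stem cells on endothelium and marrow stroma, had 57.9, 75.2 and 46.1 in ISC libraries, against 251, 308 and 238 in Fused libraries (log2 change -2.15 ± 0.23 (SE), adjusted p = 0.0285, limma). Control libraries ranged across both groups, at 53.7, 153 and 263. Of 15 marrow stroma and progenitor genes VCAM1 was the only call, and 12 were negative (median log2 change -0.65). CXCL12, the chemokine that retains blood stem cells, had 124, 747 and 125 in ISC libraries, against 325, 1021 and 1150.1 in Fused libraries: Fused replicates 2 and 3 and ISC replicate 2 were the high libraries. EBF3, a transcription factor of marrow stroma, had 11.8, 8.35 and 10.03 in ISC libraries, against 20.9, 16.1 and 23.0 in Fused libraries (limma adjusted p = 0.422). PROM1, a progenitor surface protein, averaged 9.62 ± 3.47 in ISC libraries and 20.3 ± 2.62 in Fused libraries (SD, n = 3 each; limma adjusted p = 0.404).

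Summed counts of erythroid, granulocyte and cell cycle genes were highest in the 3 libraries rich in haemoglobin, 1 of ISC and 2 of Fused. None of the 21 erythroid, 17 granulocyte and mast cell, 12 platelet, 16 macrophage, 23 lymphocyte and 30 cell cycle genes tested was called. All 21 erythroid, all 17 granulocyte and all 30 cell cycle genes had negative changes, with medians of -1.63, -1.84 and -1.35. Summed erythroid counts were 8603, 103754 and 7977 in ISC libraries, 24694, 96026 and 117138 in Fused libraries, and 4460.0, 1995 and 4014 in Control libraries. ISC replicate 2 thus lay among the Fused libraries. SLC4A1, the red cell anion exchanger, had 125, 2779.7 and 45.1 in ISC libraries, against 254, 1951 and 1839 in Fused libraries, and S100A8, a neutrophil protein, 207, 3382 and 108 in ISC libraries, against 494, 4915 and 2713 in Fused libraries. ALAS2, the first enzyme of haem synthesis in red cells, had 217, 2732 and 282 in ISC libraries, against 670.1, 2801 and 3367 in Fused libraries. Both genes and S100A8 were high in ISC replicate 2 and Fused replicates 2 and 3. S100A9, which pairs with S100A8, had 222, 3240.4 and 107 in ISC libraries, against 501, 4380.2 and 2765 in Fused libraries, and KIT, the receptor of stem and mast cells, had 124, 39.4 and 12.04 in ISC libraries, against 111, 122 and 60.1 in Fused libraries. ITGA2B, the platelet integrin, had 6.43, 39.4 and 6.02 in ISC libraries, against 9.29, 172 and 14.2 in Fused libraries, and TUBB1, the platelet tubulin, had 6.43, 58.5 and 0 in ISC libraries, against 13.9, 157 and 12.03 in Fused libraries. The kinase CDK1, which drives mitosis, had 8.58, 90.7 and 2.01 in ISC libraries, against 17.4, 89.5 and 41.5 in Fused libraries, and BUB1, a mitotic checkpoint kinase, 2.14, 93.1 and 0 in ISC libraries, against 9.29, 56.3 and 36.1 in Fused libraries. The 2 levels overlapped in each of these genes. MKI67, present in dividing cells, had 19.3, 740.0 and 13.0 in ISC libraries, against 41.8, 337 and 461 in Fused libraries. Control libraries had at most 6.60.

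Among the libraries high in haemoglobin the medians were positive for erythroid (0.55) and cell cycle genes (0.36) and near 0 for granulocyte genes (-0.08); among those low in it they were -1.38, -0.80 and -1.48. The lymphocyte list had a median of -0.90, the platelet list -0.88 and the macrophage list -0.14. Macrophage counts did not split the libraries as haemoglobin did, with sums of 187, 1038 and 1319 in ISC libraries, 546, 1606 and 758 in Fused libraries, and 259, 400.1 and 364 in Control libraries. CD163, a macrophage receptor, overlapped between the groups, at 4.29, 17.9 and 81.3 in ISC libraries, against 20.9, 47.3 and 29.5 in Fused libraries. SDC1, syndecan-1, present on plasma cells and on epithelia, was higher in ISC without overlap, with 60.0, 66.8 and 74.2 in ISC libraries, against 33.7, 39.2 and 18.6 in Fused libraries (limma adjusted p = 0.233). In that list of 23, 18 members were negative and 5 were lower in ISC without overlap, beside 7.35% of all tested genes. VPREB3, of pre-B cells, was listed at 0 in all ISC libraries and had 1.16, 4.02 and 2.19 in Fused libraries. RAG1, which rearranges antigen receptor genes in early lymphocytes, was listed at 0 in all ISC libraries and had 2.32, 1.01 and 3.28 in Fused libraries. The cartilage list had medians of 3.46 and 2.06 in libraries low and high in haemoglobin.

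Bone cell genes gave no call. None of 17 osteoblast and osteocyte genes passed, 5 were positive and the median log2 change was -0.55. That median was 0.20 among libraries low in haemoglobin and -1.02 among those high in it, so its direction turned. DMP1, a matrix protein of osteocytes, separated the groups, with 1.07, 7.16 and 5.02 in ISC libraries, 32.5, 171 and 106 in Fused libraries and 0, 1.60 and 0 in Control libraries. Its log2 change of -4.19 ± 0.73 (SE) had an adjusted p of 0.0778 (limma). SOST, sclerostin, another osteocyte product, had 0, 0 and 3.01 in ISC libraries, against 3.48, 20.1 and 247 in Fused libraries, and MEPE 0, 8.35 and 1.003 in ISC libraries, against 5.81, 24.1 and 501 in Fused libraries: in both, Fused replicate 3 was far above the other Fused libraries. RUNX2, the osteoblast transcription factor, overlapped, at 75.1, 57.3 and 164 in ISC libraries, against 97.5, 154 and 121 in Fused libraries. Osteoclast genes gave no call among 13, of which 2 were positive and 11 negative (median -0.79). NFATC1, the transcription factor of osteoclast formation, had 101, 89.5 and 225 in ISC libraries, against 68.5, 60.3 and 59.0 in Fused libraries (limma adjusted p = 0.367), and TNFRSF11A, the receptor RANK, had 22.5, 13.1 and 26.1 in ISC libraries, against 36.0, 44.3 and 26.2 in Fused libraries (limma adjusted p = 0.534). OSCAR, an osteoclast receptor, had 0, 0 and 0 in ISC libraries, against 1.16, 14.1 and 1.09 in Fused libraries (limma adjusted p = 0.434). ACP5, tartrate-resistant acid phosphatase, was high in Fused replicate 2 alone, at 0, 14.3 and 8.03 in ISC libraries, against 6.97, 218 and 10.9 in Fused libraries. The osteoblast gene BGLAP and the osteoclast gene CALCR were listed at 0 in all 6 libraries.

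Interferon-induced and glycolysis genes held no call but lay largely on one side of 0. All 21 interferon-induced genes tested were negative, with a median of -0.84. It was -1.28 among libraries low in haemoglobin and -0.14 among those high in it. RSAD2, an antiviral enzyme, had 0, 14.3 and 2.01 in ISC libraries, against 22.1, 15.1 and 30.6 in Fused libraries, and OAS2, a sensor of double-stranded RNA, 0, 3.58 and 1.003 in ISC libraries, against 11.6, 6.03 and 8.75 in Fused libraries, both at low levels (limma adjusted p = 0.373 and 0.278). IFI44L, another interferon-induced gene, had 4.29, 5.97 and 8.03 in ISC libraries, against 22.1, 13.1 and 19.7 in Fused libraries (limma adjusted p = 0.277). Glycolysis and hypoxia genes were positive in 28 of 33, with a median of 0.96. That median was 0.76 among libraries low in haemoglobin, 1.70 among those high in it and 0.41 without ISC replicate 2. Without overlap, 15 members were higher and 1 lower in ISC, beside 8.08% and 7.35% of all tested genes. LDHA, lactate dehydrogenase, had 375, 918 and 462 in ISC libraries, against 144, 220.3 and 98.4 in Fused libraries (limma adjusted p = 0.124), HIF1A, the hypoxia-response factor, 261, 630.2 and 763 in ISC libraries, against 171, 145 and 137 in Fused libraries (limma adjusted p = 0.140), and PFKP, a phosphofructokinase, 197, 290.0 and 271 in ISC libraries, against 113, 91.5 and 53.6 in Fused libraries (limma adjusted p = 0.0889). All 35 ribosomal protein genes were negative with a median of -0.38. RPL22 and RPLP1, of the large subunit, averaged 438 ± 119.7 in ISC libraries and 631 ± 180.4 in Fused libraries for RPL22 and 809.8 ± 165 in ISC libraries and 1093 ± 255 in Fused libraries for RPLP1 (limma adjusted p = 0.629 and 0.674). RPS13, a protein of the small subunit, had overlapping values of 1068, 729 and 712 in ISC libraries, against 1053, 953 and 1420.1 in Fused libraries.

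Markers of neighbouring tissue gave no calls either. Among 18 Schwann cell and nerve genes 5 were positive (median -1.08), and the summed level was highest in Fused replicate 2: 1916, 547 and 879 in ISC libraries, 1474, 3480.0 and 411 in Fused libraries, and 847, 1052 and 769 in Control libraries. PMP22, a myelin protein also made by fibroblasts, averaged 304 ± 16.6 in ISC libraries and 108 ± 47.1 in Fused libraries, NCAM1, an adhesion molecule, 282 ± 118 in ISC libraries and 161 ± 45.5 in Fused libraries, and SOX10, the transcription factor of Schwann cells, 0.357 ± 0.619 in ISC libraries and 3.82 ± 3.71 in Fused libraries. Their adjusted p-values by limma were 0.0887, 0.593 and 0.458. AQP4, a water channel in the list of meninges and neural tissue, had 19.3, 4.77 and 14.0 in ISC libraries, against 129, 149.9 and 57.9 in Fused libraries, without overlap (limma adjusted p = 0.0798). Control libraries had 36.8, 123 and 177, with replicate 3 the highest, as for KLB. The list as a whole had a median of -0.99 over 11. The gap junction genes GJB2 and GJB6, read in meninges and other tissues, stayed below 10 scaled reads in each of the 6 libraries. Skeletal muscle genes had a median of 0.43 over 19 tested, with summed counts of 1710.2, 349.7 and 504 in ISC libraries, 709.5, 485 and 419.8 in Fused libraries, and 5258, 639 and 1241 in Control libraries, so muscle was highest in ISC replicate 1 among the 6. The muscle median was 1.84 among libraries low in haemoglobin, -1.05 among those high in it and -0.85 without ISC replicate 1. TNNC1 and TNNT1, troponins of slow muscle, had 0, 0 and 1.003 in ISC libraries, against 1.16, 4.02 and 3.28 in Fused libraries for TNNC1 and 103, 13.1 and 8.03 in ISC libraries, against 2.32, 6.03 and 3.28 in Fused libraries for TNNT1.

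Blood vessel genes had medians of -0.65 for 19 blood endothelial, 0.07 for 17 smooth muscle and mural and 0.45 for 8 lymphatic members. CSPG4, a surface proteoglycan of pericytes and of cartilage cells, averaged 229.6 ± 92.5 in ISC libraries and 51.8 ± 17.0 in Fused libraries (SD, n = 3 each; limma adjusted p = 0.0798). PDGFRB, the platelet-derived growth factor receptor of mural cells and fibroblasts, averaged 596 ± 93.2 in ISC libraries and 351 ± 39.2 in Fused libraries, and SMTN, a smooth muscle cytoskeletal protein, 194 ± 57.4 in ISC libraries and 86.7 ± 38.2 in Fused libraries (limma adjusted p = 0.238 and 0.272). Of the 19 blood endothelial genes, 15 were negative and 4 positive. Without overlap, 3 were lower and 1 higher in ISC, beside 7.35% and 8.08% of all tested genes. CLDN5, of tight junctions, averaged 25.7 ± 7.23 in ISC libraries and 70.3 ± 36.0 in Fused libraries, and TIE1, an endothelial receptor kinase, 48.6 ± 11.1 in ISC libraries and 86.7 ± 18.5 in Fused libraries, lower in ISC. ERG, an endothelial transcription factor also found in cartilage, averaged 646 ± 28.7 in ISC libraries and 378 ± 134 in Fused libraries, higher in ISC. The adjusted p-values of the 3 by limma were 0.297, 0.311 and 0.374. Of the 8 lymphatic genes tested, 5 were positive and 3 negative. Summed counts of the lymphatic list overlapped between the groups, at 415, 314 and 675 in ISC libraries, against 568, 297 and 329 in Fused libraries. Among lymphatic genes, RELN, the secreted protein reelin, had 29.0, 58.5 and 40.1 in ISC libraries, against 4.65, 9.05 and 15.3 in Fused libraries, the chemokine CCL21 had 5.36, 5.97 and 123 in ISC libraries, against 2.32, 0 and 2.19 in Fused libraries, and MMRN1, multimerin, had 18.2, 9.55 and 85.3 in ISC libraries, against 1.16, 10.1 and 5.47 in Fused libraries. Their adjusted p-values by limma were 0.150, 0.418 and 0.427, and MMRN1 overlapped between the groups.

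The lists still to be given also had no call. Basement membrane genes had a median of 0.43 over 19; COL15A1, a collagen next to that membrane, averaged 1078 ± 744 in ISC libraries and 99.5 ± 44.7 in Fused libraries (SD, n = 3 each; limma adjusted p = 0.0607). HSPG2, perlecan, averaged 1035 ± 225 in ISC libraries and 517 ± 178 in Fused libraries, and COL8A1, a network collagen, 2366 ± 1941 in ISC libraries and 408 ± 60.6 in Fused libraries (limma adjusted p = 0.272 and 0.187). The IGF list had a median of 0.40 over 12, with -0.23 among libraries low in haemoglobin and 0.57 among those high in it. IGFBP2, a binding protein of that list, had 74.0, 113 and 182 in ISC libraries, against 771, 404 and 525 in Fused libraries, without overlap and lower in ISC (limma adjusted p = 0.0678). IGFBP6, another binding protein, had 1326, 1558 and 2015 in ISC libraries, against 913, 567 and 736 in Fused libraries (limma adjusted p = 0.191), and PAPPA2, a protease that cleaves such proteins, had 342, 214 and 416 in ISC libraries, against 233, 97.6 and 244 in Fused libraries (limma adjusted p = 0.566).

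The last lists are given by their medians and the members with the smallest p. Medians were 0.14 for 18 FGF, -0.02 for 17 immediate early, -0.39 for 12 inflammatory cytokine, -0.02 for 13 heat shock, 0.11 for 29 HOX and -0.19 for 29 respiratory chain genes, beside -0.07 for all tested genes. Scaling to equal medians turned the heat shock and immediate early medians positive. At least 1 of the 21 alternatives, among them leaving out libraries, also turned the sign of the median for the basement membrane, ADAMTS, BMP and GDF, Wnt, FGF, IGF, YAP, osteoblast, osteoclast, macrophage, platelet, granulocyte, skeletal muscle, smooth muscle, lymphatic endothelial, fibroblast and HOX lists, besides erythroid and cell cycle. CXCL8, a neutrophil chemokine, had 9.65, 62.1 and 26.1 in ISC libraries, against 49.9, 170.0 and 70.0 in Fused libraries (limma adjusted p = 0.448), and KLF4, an immediate early transcription factor, 85.8, 50.1 and 91.3 in ISC libraries, against 33.7, 21.1 and 8.75 in Fused libraries (limma adjusted p = 0.201). CCL5, a chemokine of lymphocytes, had 1.07, 0 and 1.003 in ISC libraries, against 2.32, 5.03 and 3.28 in Fused libraries, and NOS2, inducible nitric oxide synthase, had 7.51, 14.3 and 4.01 in ISC libraries, against 1.16, 2.01 and 3.28 in Fused libraries. Neither overlapped, and both had few reads. DUSP6, a phosphatase that limits ERK signalling, averaged 66.3 ± 41.8 in ISC libraries and 111 ± 18.2 in Fused libraries, and FOSL2, a member of the AP-1 complex, 256 ± 79.6 in ISC libraries and 147 ± 10.2 in Fused libraries (limma adjusted p = 0.501 and 0.351). FGFR1, a receptor of the FGF list, averaged 726 ± 202 in ISC libraries and 454 ± 36.7 in Fused libraries and its ligand-family member FGF10 22.2 ± 10.6 in ISC libraries and 43.6 ± 21.9 in Fused libraries (limma adjusted p = 0.397 and 0.584). The small heat shock protein genes CRYAB and HSPB8 averaged 727 ± 459.6 in ISC libraries and 336 ± 90.6 in Fused libraries for CRYAB and 49.5 ± 25.998 in ISC libraries and 60.7 ± 24.7 in Fused libraries for HSPB8 (limma adjusted p = 0.513 and 0.837). HOXD9 and HOXB3, position genes of the body axis, averaged 6.77 ± 1.75 in ISC libraries and 3.38 ± 4.23 in Fused libraries for HOXD9 and 33.5 ± 3.86 in ISC libraries and 22.9 ± 3.42 in Fused libraries for HOXB3 (limma adjusted p = 0.646 and 0.587). COX4I1, a subunit of cytochrome oxidase, averaged 389.7 ± 17.1 in ISC libraries and 536 ± 38.2 in Fused libraries (limma adjusted p = 0.417).

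**Figure D5:**
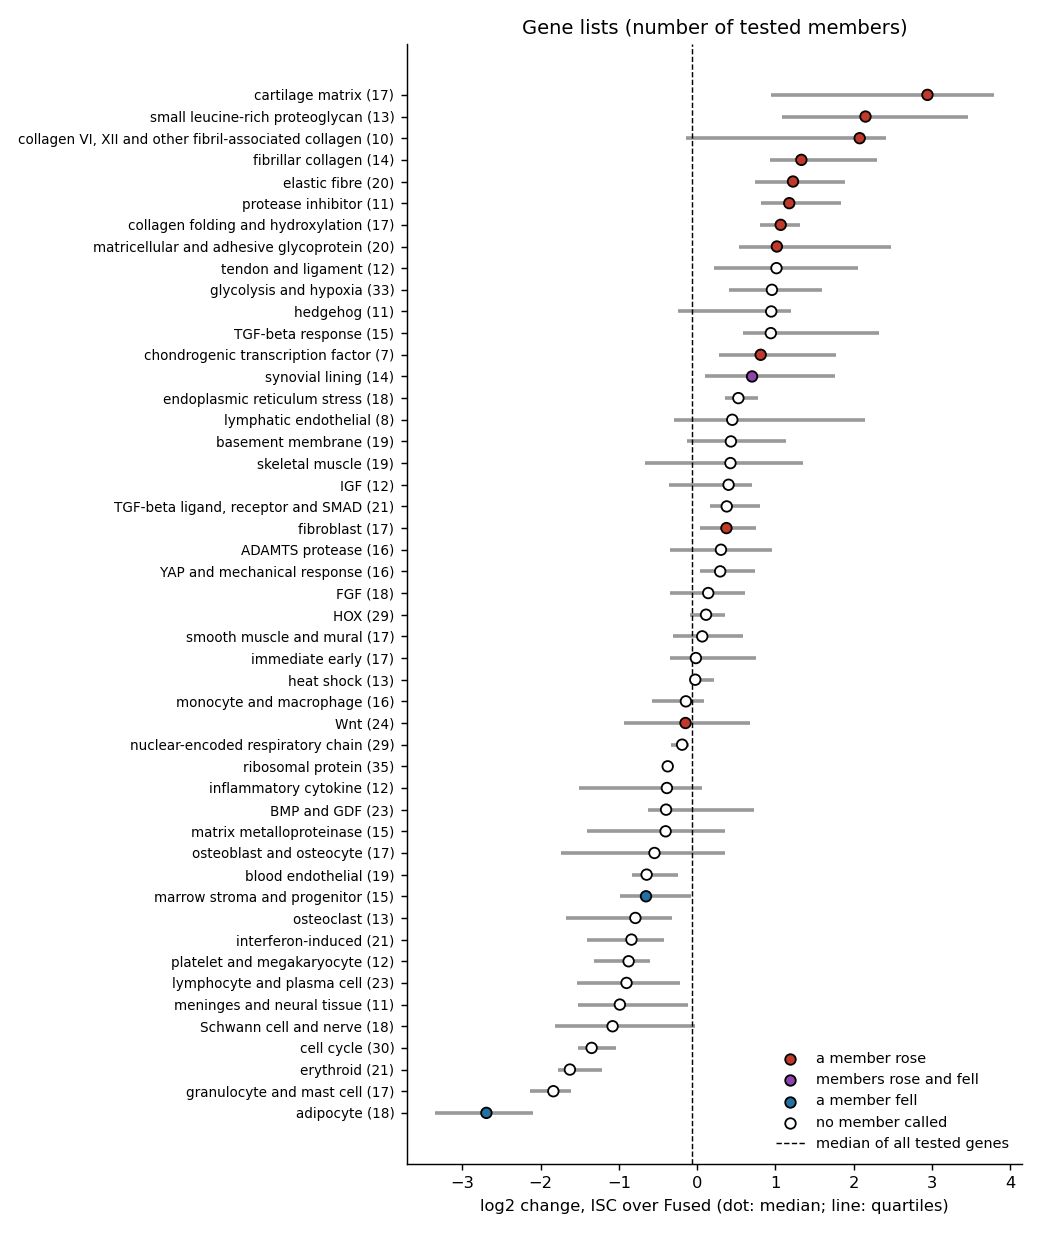
Median (dot) and quartiles (line) of the log2 change, ISC over Fused, over the tested members of each of the 48 gene lists, with the number tested in brackets; dots are coloured by whether any member was called, and the dashed line is the median of all tested genes (-0.07). Cartilage matrix has the highest median (2.94) and the adipocyte list the lowest (-2.69).

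Levels in sham-operated Control ligament divide the called genes. Of the 31 that rose, 14 had all Control values below the ISC and above the Fused ones, CILP, ANGPTL5, ABI3BP and RSPO2 among them. In 10 the Control values overlapped the ISC range and lay above the Fused one: PRG4, PCOLCE2, SEMA3D, HR, SMOC2, SDK2, SOX9, SERPINE2, THBS3 and CAPG. In 6 they lay below the ISC range and overlapped the Fused one: COL11A1, CHAD, SRPX2, SUSD5, KCNK5 and STK38L. CYTL1 overlapped both. Of the 12 that fell, 9 had Control values above the ISC range that overlapped the Fused one, ASPA had Control values between the groups, and PPARG and VCAM1 overlapped both. These positions describe 3 libraries each and were not tested.

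The authors' deposited table for the same pair of levels marks 527 of the 23407 rows as changed at a q-value threshold of 0.1, 366 higher and 161 lower in ISC (1.56% and 0.688%). It holds all 43 limma calls (100%), which are 8.16% of its own. Both sets of calls come from the same libraries, and the authors' threshold is the looser one, so this overlap is not independent support. Among those 527, 481 had groups that did not overlap and 46 had groups that did. The largest changes by q-value in the authors' deposited table that limma did not call include genes of the same kinds as above. C1QTNF3, a secreted relative of complement C1q made by cartilage, had 409, 2325 and 1422 in ISC libraries, against 46.5, 52.3 and 8.75 in Fused libraries. The authors' deposited table gives it a log2 change of 5.27 and a q of 1.8e-09. SCRG1, a secreted protein of chondrocytes, had 110.4, 333 and 27.1 in ISC libraries, against 0, 5.03 and 2.19 in Fused libraries, a wide spread in ISC with almost no Fused reads. ANGPTL7, an angiopoietin-like protein of eye and cartilage, had 309, 34.6 and 693 in ISC libraries, against 2.32, 8.05 and 0 in Fused libraries, and LGALS12, a galectin of adipocytes, 3.22, 5.97 and 1.003 in ISC libraries, against 55.7, 38.2 and 36.1 in Fused libraries. In the authors' deposited table the matrix lists gave 9 higher calls each for cartilage matrix, elastic fibre, collagen folding and small leucine-rich proteoglycan genes and none lower. The glycolysis and hypoxia list gave more, with 11 higher and none lower, while the adipocyte list gave 15 lower and none higher.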

How the data were processed

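Ligament RNA of 9 libraries was sequenced from a directional preparation, with 100 ng of RNA per library, per the labels. TopHat is named by the submitters' processing notes, and TopHat, the oryCun2 genome and Cufflinks by the series' design text. The deposited values are nevertheless scaled whole reads; which tool counted those reads, and with what strand setting, is not given in the sources used here, and overlapping or antisense genes may therefore share reads. The deposited values of each library are signal: read counts scaled by TMM, per the file headers, and dividing by the smallest value gave whole reads for 100% of values within a tolerance of 1e-06. The authors also deposited p-values and q-values, log2 changes, a score that ranks the rows and a 0 or 1 call for the pair of levels.

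Here log2(value + 1) was fitted with limma 3.58.1 in R 4.3.3 for genes with a value of at least 1 in at least 3 of the 6 libraries, without covariates, and p-values were adjusted by Benjamini-Hochberg. The fit was also run on simulated counts with changed and unchanged genes. These were drawn for each gene separately, without a shared difference between libraries such as that in haemoglobin. The run therefore cannot give the error rate of the calls in these libraries. edgeR 4.0.16 and DESeq2 1.42.0 on the recovered reads, other scalings, filters, pseudocounts and variance models, all 9 libraries, a haemoglobin covariate and leaving out each library were alternatives. Depth limits low genes: 3 reads, the floor a count of 0 allows, are worth 3.01 to 3.58, for counting error only.

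The comparison, the gene lists and the panel of named genes were chosen with earlier results of these data known. The text names the called genes that rose most and fell most (at most 12 each), a panel of 22 genes, members among the 3 with the smallest p of each list described, and defining markers. Further called genes, and OGN, PRELP, EFEMP1, RSPO3, COL6A3, COL9A2, COL10A1, HAPLN1, HTRA4, SOX6, TNMD, ACP5, MEPE and DKK1, lie outside this rule and were named after their values were seen. Lists are described by counts and medians without a test. Gene coordinates span the exon intervals of the deposited table. Of 8020 locus-named rows, 764 were paired with a symbol through the RefSeq gene table.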

Additional observations from a re-analysis of the deposited data

How the results depend on the processing

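The sign of the 43 called genes was the same under all 21 alternatives, which groups without overlap largely fix, but the calls were not. CILP and CHAD kept their call in 17 of the 21, ACACB, LIPE and THRSP in 16 and ASPA in 6. Against 43 calls, limma called 74 with medians set equal, 79 with no filter on low values, 82 with array weights, 73 with haemoglobin as a covariate, 214 with all 9 libraries in 1 fit and 0 without the trend, where 1557 genes had an unadjusted p under 0.05. DESeq2 called 321 and edgeR 29. Leaving out the 3 libraries rich in haemoglobin gave 0 calls with 878 genes at an unadjusted p under 0.05, and leaving out Fused replicates 2 and 3 gave 0 with 600. Leaving out 1 library gave 0 to 24 calls by limma. In a check chosen after seeing the data, edgeR gave 4, 14 and 18 calls without ISC replicate 1, 2 or 3 and 0 without each Fused replicate, where 990 to 1457 genes had an unadjusted p under 0.05. Likewise, 1059 genes had an unadjusted p under 0.05 in limma without Fused replicate 3, where no gene was called. With only 1 library left in a group, that library is assumed to vary like the others.

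As a replicate block, the replicate number gave 88 calls, 40 of them among the 43. Same-numbered ISC and Fused libraries had correlations of deviations of 0.31, 0.31 and -0.10, and ISC replicate 3 correlated best with Fused replicate 1 (0.28). ISC replicate 2 also correlated with Fused replicate 3 (0.24). The positive values all joined libraries alike in haemoglobin, so they cannot show whether animals were shared. The numbers were not taken as pairs because the labels do not say that they mark animals. MKI67 turned to a log2 change of 1.41 with the haemoglobin covariate (limma adjusted p = 0.0478), against -1.66 in the comparison as reported, and its adjusted p ran from 0.0478 to 0.9995 over the alternatives. Erythroid and cell cycle medians ran from -3.03 to 0.92 and from -2.61 to 0.90, while the adipocyte median stayed between -2.85 and -2.33 and that of cartilage matrix between 2.28 and 3.74. The cause of these changes was not tested.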

Other observations

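Some rows were read in every library of one level and listed at 0 in all libraries of the other. They were chosen after their values were seen, and none passed the limma test. CA9, a carbonic anhydrase induced by low oxygen, had 4.29, 77.6 and 3.01 scaled reads in ISC libraries and was listed at 0 in all Fused libraries. Against a floor of 3 reads per library, that is at least 8.68-fold higher in ISC, mostly from ISC replicate 2 (limma adjusted p = 0.285). ANKEF1 was listed at 0 in all ISC libraries and had 4.65, 5.03 and 7.65 in Fused libraries, at least 1.77-fold lower in ISC (limma adjusted p = 0.0698). DSG4, a desmosomal cadherin, was listed at 0 in all ISC libraries and had 5.81, 3.02 and 7.65 in Fused libraries (limma adjusted p = 0.0887).

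Mitochondrial transcripts took 6.63%, 4.29% and 5.86% of scaled reads in ISC libraries and 9.82%, 6.64% and 14.5% in Fused libraries, and the highest ISC library lay just under the lowest Fused one. Control libraries had 7.77%, 5.56% and 7.87%. DKK1, a secreted Wnt antagonist made by osteocytes, was below the filter: it was listed at 0 in all ISC libraries and in Fused replicate 1, and had 3.02 and 53.6 scaled reads in Fused replicates 2 and 3.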
